A study of Homo sapiens with 14 samples.

Results

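The HLA class II genes, CD74 and CIITA are the genes with which a cell shows peptides from its endosomes to CD4+ T cells. The 10 genes described here are HLA-DRA, HLA-DRB1, HLA-DRB5, HLA-DPA1, HLA-DPB1, HLA-DMA, HLA-DMB, HLA-DQB1, CD74 and CIITA, found by symbol among the 44591 genes of the LNCaP table and the 24199 features of the DU145 table, and all 10 are in both. They were chosen by values that these LNCaP libraries had already shown, so their LNCaP levels and differences are a description and carry no test. LNCaP is an androgen-sensitive human prostate cancer cell line, and DU145 is a human prostate cancer line that grows without androgen. RNA was sequenced from 1 library of parental LNCaP cells (control, wild type) and 1 library of LNCaP-ENZ cells, an enzalutamide-resistant LNCaP line kept in 20 µM enzalutamide, an antiandrogen used in prostate cancer, with 30 days of treatment given in the text of the series. Per the methods of the study each line was sequenced in 3 replicates, whereas the labels and the table hold 1 LNCaP library per arm, and whether either pools several samples is not given in the sources used here. In DU145 cells grown without enzalutamide, 3 shCON control libraries were compared with 3 shPAX6 libraries, in which a short hairpin RNA lowers PAX6, a developmental transcription factor. The study asked whether LNCaP cells take on neuroendocrine traits under enzalutamide and whether less PAX6 represses such traits in DU145, and the 6 ATAC-seq samples of the series are not analysed here.

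A class II molecule pairs an alpha and a beta chain, encoded by an A and a B gene of the DR, DP or DQ type. CD74, the invariant chain, holds newly made pairs together, blocks their groove and carries them to the endosome. There HLA-DM, made of HLA-DMA and HLA-DMB, exchanges the remnant of CD74 for a peptide. CIITA is the coactivator that switches these genes on, usually after interferon-gamma in cells that are not professional antigen-presenting cells. It does not bind DNA itself but docks on the RFX, CREB and NF-Y factors, which sit on the X and Y boxes upstream of each gene.

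The promoters are shown because the genes that share these boxes did not move alike in LNCaP-ENZ cells. RefSeq promoters on GRCh38.p14, running from 250 bases before to 50 bases after a start, were given for 8 of the 10 genes, all but HLA-DRA and CIITA, with 9 starts in all since HLA-DPA1 has 2. Searched on both strands, the letters CCAAT of the Y box (ATTGG on the other strand) were in 7 of the 9 promoters and in 34.6% of all 35097 promoters of this length. The letters CNAGNNAC, a loose match to the X box chosen after these promoters had been read, were in 7 of the 9 and in 39.3% of all. The X letters followed by the Y letters within 40 bases were in 5 of the 9 and in 3.01% of all. A match is a run of letters and was not shown to be a bound site. The windows below are read on the strand of the gene, and capitals mark the X and Y letters. They run 12 bases past the paired letters on either side, and further on 1 side for HLA-DMB, HLA-DPA1 and HLA-DPB1, where only X or only Y letters were found in reach. HLA-DQA1, which is not among the 10 genes, is added as the DQ alpha chain that pairs with HLA-DQB1.
CD74 (chr5:150412947-150413005, minus strand): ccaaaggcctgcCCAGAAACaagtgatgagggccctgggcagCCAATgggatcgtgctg
HLA-DRB1 (chr6:32589878-32589941, minus strand): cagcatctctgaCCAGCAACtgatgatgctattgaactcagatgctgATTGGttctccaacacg
HLA-DRB5 (chr6:32530361-32530424, minus strand): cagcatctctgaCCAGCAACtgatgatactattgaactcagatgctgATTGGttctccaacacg
HLA-DPA1 (chr6:33073686-33073762, minus strand): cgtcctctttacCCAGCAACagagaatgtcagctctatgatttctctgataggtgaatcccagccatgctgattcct
HLA-DPB1 (chr6:33075839-33075907, plus strand): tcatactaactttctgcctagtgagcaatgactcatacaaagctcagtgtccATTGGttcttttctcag
HLA-DMA (chr6:32953160-32953224, minus strand): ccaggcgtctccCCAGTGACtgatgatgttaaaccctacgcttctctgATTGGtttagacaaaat
HLA-DMB (chr6:32941054-32941130, minus strand): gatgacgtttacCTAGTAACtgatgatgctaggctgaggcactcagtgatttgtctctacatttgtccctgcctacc
HLA-DQB1 (chr6:32666705-32666744, minus strand): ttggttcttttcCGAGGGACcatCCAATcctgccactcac
HLA-DQA1 (chr6:32637290-32637354, plus strand): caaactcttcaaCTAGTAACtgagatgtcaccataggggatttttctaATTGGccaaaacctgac

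The paired letters stood upstream of CD74, HLA-DRB1, HLA-DRB5, HLA-DMA and HLA-DQB1 among the 10 genes, and of HLA-DQA1. Each window shows the pair nearest the start. The pair of HLA-DQB1 lay in a window of 40 bases, against 59 to 65 bases in the other paired windows shown. This spacing depends on the loose letters searched for and need not be that of its X and Y boxes. HLA-DMB and 1 start of HLA-DPA1 held the X letters without Y letters in reach, and HLA-DPB1 held the Y letters alone. The HLA-DRB1 and HLA-DRB5 windows differed at 1 of 64 bases. HLA-DRB1 and HLA-DMA both carried the pair, and their LNCaP log2 ratios, given below, were 3.78 and -0.28.

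The LNCaP tables held 20468001 counts for parental and 17945722 for LNCaP-ENZ cells, and counts were scaled to CPM, the counts of a gene per 1e6 counts of its library. A floor of 3 counts, used in place of 0 counts, is 0.147 CPM in parental and 0.167 CPM in LNCaP-ENZ cells. It is not a limit, since the exact 95% Poisson interval of 0 counts reaches 0.180 and 0.206 CPM. Each fold is a ratio of CPM with a 95% exact Clopper-Pearson interval from the split of the gene's counts, and each log2 ratio is taken on CPM + 0.1, which understates the change of genes with few counts. Genes are called at least 2-fold or 8-fold higher or lower by this log2 ratio. Folds and intervals cover counting error between these 2 libraries only, and no difference between them has a replicate check. Both libraries carried prostate luminal genes, with 11374 parental and 10025 LNCaP-ENZ counts of HOXB13, and in bulk RNA fewer cells of a type and less RNA per cell cannot be told apart. The DU145 values, treated as FPKM, summed to between 448901 and 570790 per library, both extremes being shPAX6 libraries, and their read depth is unknown. The labels do not say whether the 3 libraries of a DU145 group came from separate cultures, so p-values measure only the spread between these libraries.

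CD74 and both DR chains carried most of the difference between the LNCaP libraries. The 10 genes together had 748 counts in parental cells and 2065 in LNCaP-ENZ cells, which is 36.5 and 115 CPM. In parental cells CD74, HLA-DRA and HLA-DRB1 made up 3.07% of these counts, whereas in LNCaP-ENZ cells they made up 67.4%. The 2 HLA-DM genes went from 612 to 439 counts over the same pair of libraries.

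CD74 was counted 6 times in the parental library and 786 times in the LNCaP-ENZ library, or 0.293 CPM (95% exact Poisson interval 0.108 to 0.638) and 43.8 CPM (40.8 to 47.0). The ratio was 149-fold (68.3 to 408), and the log2 ratio of CPM + 0.1 of 6.80 was the highest among the 19235 genes with at least 10 counts over both libraries. The gene lies on chromosome 5 of GRCh37 from 149781200 to 149792499, away from the HLA genes on chromosome 6.

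Among the peptide-binding chains, HLA-DRA, the DR alpha chain, had 3 and 414 counts, or 0.147 and 23.1 CPM. This ratio of 157-fold (53.5 to 766) gave a log2 ratio of 6.55, rank 2 of all tested genes. HLA-DRB1, the main DR beta chain, had 14 and 192 counts, a 15.6-fold difference (9.10 to 29.2) and a log2 ratio of 3.78, rank 10. Both DR genes were therefore low but above 0 in parental cells, and the LNCaP-ENZ intervals did not meet the parental ones.

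HLA-DRB5, a further DR beta gene that only some chromosomes carry, was not counted in the parental library (0 counts) and had 8 counts in the LNCaP-ENZ library. Set against the floor of 3 counts in the parental library, it was 3.04-fold higher. That value takes the 8 counts as they stand and is not a lower limit, since the exact interval of the ratio began at 1.95. The gene fell under the filter of 10 counts. Of the 50-base windows in the reference transcripts of HLA-DRB1, 8.69% also occur exactly in those of HLA-DRB5, so reads may be split between these copies and both values are uncertain. This share counts exact matches between reference sequences only and does not bound the reads placed on the wrong copy.

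The DP chains differed less. HLA-DPA1 had 6 and 44 counts, an 8.36-fold difference (3.55 to 24.0) with a log2 ratio of 2.70, rank 42. HLA-DPB1 had 32 and 99 counts, a 3.53-fold difference (2.35 to 5.43) with a log2 ratio of 1.76, rank 174. The models of these genes overlap by 4853 bases on opposite strands, and the sources used here do not say that counting used strand, so reads from the overlap cannot be told apart.

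HLA-DQB1, the DQ beta chain, had 60 counts in parental and 58 in LNCaP-ENZ cells, with a ratio of 1.10 (0.755 to 1.61) that includes 1. Its partner chain HLA-DQA1 had 1 and 41 counts, a log2 ratio of 4.00. Both promoters hold the paired letters, which need not be their X and Y boxes.

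The genes of the peptide exchange factor HLA-DM were slightly lower. HLA-DMA had 408 and 295 counts, or 19.9 and 16.4 CPM, a ratio of 0.825 (0.708 to 0.960). HLA-DMB had 204 and 144 counts, a ratio of 0.805 (0.646 to 1.00). Their log2 ratios of -0.28 and -0.31 lay close to the median of all tested genes, -0.18, and were -0.11 and -0.14 with DESeq2 size factors. CIITA, the coactivator, had 15 and 25 counts, or 0.733 CPM (0.410 to 1.21) and 1.39 CPM (0.902 to 2.06), a ratio of 1.90 (0.964 to 3.88) that includes 1.

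**Figure D1:**
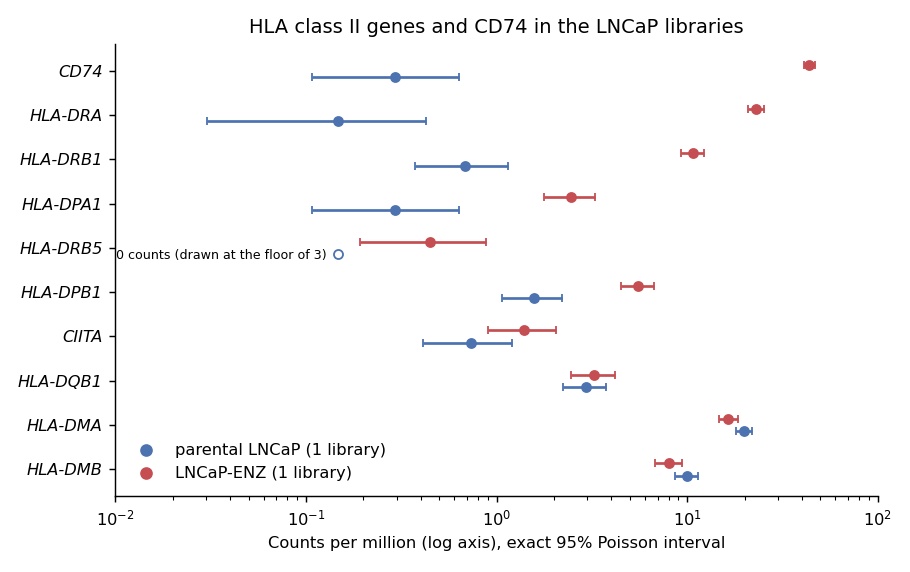
CPM on a log axis for each of the 10 genes in the parental (blue) and LNCaP-ENZ (red) library, with exact 95% Poisson intervals, and the genes ordered by log2 ratio. CD74 and HLA-DRA lie at 0.293 and 0.147 CPM in parental and at 43.8 and 23.1 CPM in LNCaP-ENZ cells, whereas HLA-DMA and HLA-DMB lie slightly lower in LNCaP-ENZ cells. The open circle is HLA-DRB5 with 0 parental counts, drawn at the floor.

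Of the 10 genes, 9 had at least 10 counts over both libraries. At least 2-fold higher in LNCaP-ENZ cells were 5 of them (CD74, HLA-DRA, HLA-DRB1, HLA-DPA1 and HLA-DPB1), beside 3.76% of all 19235 tested genes, and 3 of them were at least 8-fold higher, beside 0.146% of all. None was at least 2-fold lower, beside 13.5% of all. Since the genes were selected on this contrast, nothing is read from these shares. The median log2 ratio over all 10 genes was 2.10, or 1.68 with HLA-DRB5 set against the floor of 3 parental counts. Over all tested genes, 724 were at least 2-fold higher and 2604 lower, and with DESeq2 size factors, which raise the median of all genes by 0.17, the split was 1001 and 1938.

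**Figure D2:**
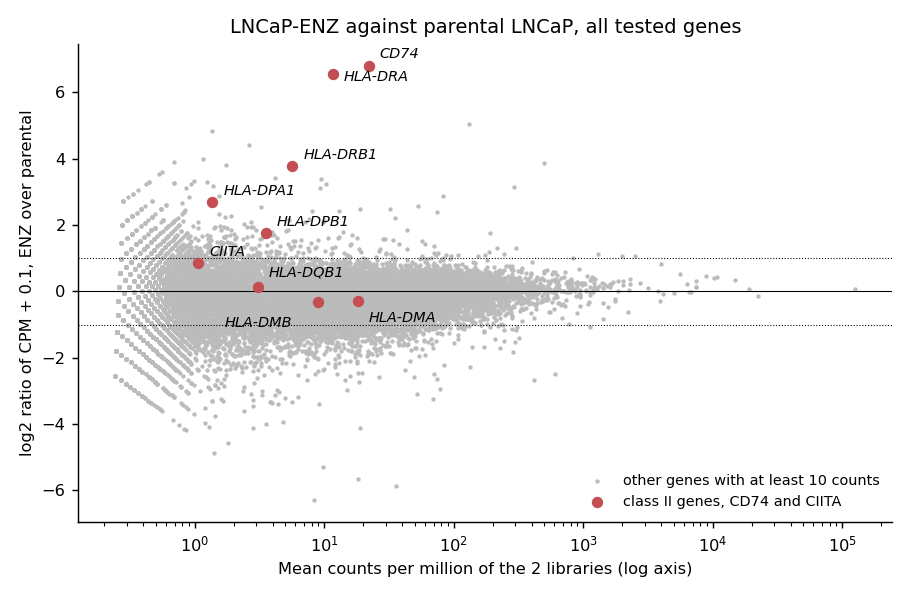
Log2 ratio of CPM + 0.1 (LNCaP-ENZ over parental) against mean CPM (log axis) for the 19235 genes with at least 10 counts, with 9 of the 10 genes in red and dotted lines at 2-fold. CD74 and HLA-DRA stand at the top of all genes (6.80 and 6.55), while HLA-DMA, HLA-DMB, HLA-DQB1 and CIITA lie between the dotted lines.

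Per length, the order of the genes turned over between the libraries. In parental cells the authors' TPM put HLA-DMA first (18.5 TPM), followed by HLA-DMB (7.45), HLA-DQB1 (1.84), HLA-DRB1 (0.587) and HLA-DPB1 (0.402). CD74, HLA-DPA1, CIITA and HLA-DRA followed between 0.182 and 0.120 TPM, and their parental counts of 3 to 15 do not separate them. In LNCaP-ENZ cells CD74 came first (25.6 TPM), followed by HLA-DRA (17.7), HLA-DMA (14.4), HLA-DRB1 (8.65) and HLA-DMB (5.65). HLA-DQB1 (1.91 TPM), HLA-DPA1 and HLA-DPB1 (1.35 and 1.34), HLA-DRB5 (0.374) and CIITA (0.291) closed that order. With 1 library per arm, no spread over samples could be set beside these levels.

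On chromosome 6 of GRCh37, 8 of the 10 genes lie within 649.9 kb, from 32407619 (the start of HLA-DRA) to 33057473 (the end of HLA-DPB1). This stretch holds 29 gene models of the table, of which 17 had at least 10 counts. Of the 10 tested neighbours, 4 were at least 2-fold higher, namely HLA-DQA1, the immunoproteasome genes PSMB8 (4 and 11 counts) and PSMB9 (12 and 24) and the antisense PSMB8-AS1 (54 and 105), and 0 were lower by that much. Over all tested genes 3.76% were higher and 13.5% lower by that much, and the interval of the PSMB8 ratio includes 1 (0.929 to 13.5). Without strand, reads of PSMB8 and its antisense partner cannot be told apart. HLA-DMB and HLA-DMA lie 494.8 and 508.8 kb from the start of HLA-DRA, between the higher DR and DP genes.

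**Figure D3:**
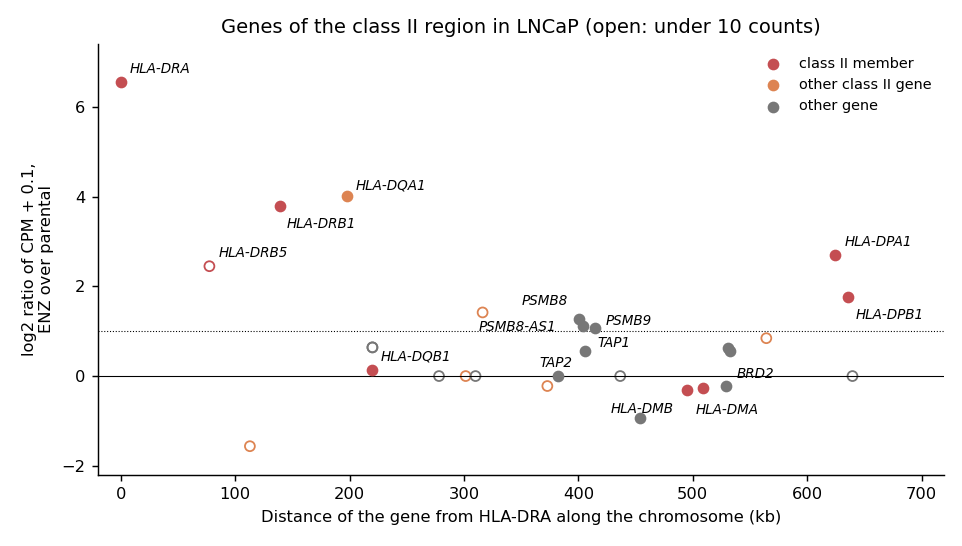
Log2 ratio of CPM + 0.1 (LNCaP-ENZ over parental) for the gene models of the class II region against their distance from HLA-DRA in kb, with class II genes of this report in red, other class II genes in orange, other genes in grey and open circles for genes under 10 counts. HLA-DRA, HLA-DRB5 and HLA-DRB1 at the left and HLA-DPA1 and HLA-DPB1 at the right lie above the dotted 2-fold line, and HLA-DQB1, HLA-DMB and HLA-DMA between them do not.

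The genes nearest to CD74 in log2 ratio, among 11004 genes with a mean of at least 5 CPM and over these 2 libraries, were HLA-DRA, IGFBP3, PIGR, HLA-DRB1 and MBNL2. IGFBP3, a secreted binding protein of insulin-like growth factors, had 157 and 4596 counts. PIGR, the receptor that carries polymeric immunoglobulins across epithelia, had 1308 and 16738 counts, and MBNL2, a splicing regulator, had 32 and 313. HLA-DRA lay 0.25 from CD74 on the log2 scale, and IGFBP3, the next, lay 1.76 away.

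Of 10 genes for factors that act on class II promoters in LNCaP, 0 were at least 2-fold higher and 1 was lower, NFYB, a subunit of the Y box factor, with 159 and 68 counts (log2 ratio -1.02), and their median was -0.46. CREB1 lay at the limit with 696 and 305 counts (log2 ratio -0.996). The counts of this and the following LNCaP lists stand beside 3.76% of all tested genes at least 2-fold higher and 13.5% lower. RFX5, the RFX subunit mutated in a form of bare lymphocyte syndrome, had 2318 and 1474 counts. Of the 11 genes on the route from interferon-gamma to CIITA, 10 were tested, 0 were at least 2-fold higher and 1 was lower, the repressor PRDM1, with 15 and 3 counts. IFNG itself had 0 counts in both libraries, and IRF1, an interferon-induced factor that acts on the CIITA promoter, had 198 and 344 counts (log2 ratio 0.98). The calls of this and the following lists use library totals, and DESeq2 size factors raised the median of all genes by 0.17. Calls near the 2-fold limit, such as those of NFYB, CREB1 and IRF1, can therefore change with the scaling.

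Of 13 tested genes of lysosomal processing, which cut CD74 and antigens or remove class II from the surface, 0 passed 2-fold in either direction. Their lowest log2 ratios were those of IFI30, a thiol reductase (-0.44), and SPPL2A, which cleaves the last remnant of CD74 (-0.33), and their highest those of the proteases CTSB (0.58) and CTSH (0.57). Of the 4 tested partners of CD74, a receptor for the cytokine MIF, 0 passed 2-fold, with log2 ratios from -0.74 (CXCR4) and -0.29 (DDT) to 0.02 (MIF) and 0.03 (CD44). Of 6 tested costimulatory genes, CD40 (3 and 9 counts) and CD274 (6 and 18 counts) were at least 2-fold higher, both at low counts, and 0 were lower.

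Class I molecules show cytosolic peptides to CD8+ T cells, and NLRC5, a relative of CIITA, switches their genes on. Of 10 tested class I presentation genes, 4 were at least 2-fold higher (HLA-B, B2M, PSMB8 and PSMB9, with log2 ratios from 1.07 to 1.27) and 0 were lower, with a median of 0.84. Over all tested genes 3.76% were higher and 13.5% lower by that much. The ratio of PSMB8 was 3.14 (0.929 to 13.5), an interval that includes 1. B2M, the light chain of class I, had 3129 and 6022 counts, and NLRC5 had 164 and 233.

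Markers of leukocytes, which carry class II, were few. The 18 leukocyte markers together had 85 counts in parental and 109 in LNCaP-ENZ cells, or 4.15 and 6.07 CPM, against 786 counts of CD74 alone in the latter. MS4A1 and CD79A of B cells, CD1C and CLEC9A of dendritic cells and TYROBP of myeloid cells had 0 counts in both libraries, and PTPRC, the pan-leukocyte CD45, had 23 and 28. ITGAM, an integrin of myeloid cells, had 1 and 14 counts and was the sole marker at least 2-fold higher among the 6 tested. The 7 stromal and endothelial markers went from 840 to 318 counts, most of them in COL1A1 (456 and 231) and VWF (345 and 27). PDGFRB went the other way (36 and 57), PECAM1 had 3 counts in each library, and CDH5, COL1A2 and COL3A1 had 0 in both. The sum therefore does not describe the list as a whole. Among the luminal markers, KLK2 and TMPRSS2 were at least 2-fold lower, with log2 ratios of -1.18 and -1.68.

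In DU145 the question was whether loss of PAX6 moved the same genes. PAX6 stood at 0.839, 1.23 and 1.57 FPKM in the shCON libraries and at 0.0153, 0.274 and 0.0778 FPKM in the shPAX6 libraries. The groups did not overlap, yet with a log2 fold change of -2.69 (SE 0.49) the Benjamini-Hochberg adjusted p of limma was 0.054. None of the 10 class II genes passed the threshold of 0.05 in this fit, which called 163 of 13574 features (1.20%), 24 higher (0.177%) and 139 lower (1.02%) in shPAX6 cells. Of the 10 genes, 7 reached the filter of a mean of 0.5 FPKM, their adjusted p values ran from 0.26 to 0.89, and 1 had an unadjusted p under 0.05, beside 18.3% of all tested features. The median log2 fold change was 0.17 over all 10 genes, 0.11 over the 7 past the filter and -0.12 over all tested features.

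CD74 was the most abundant of the 10 genes in DU145, at 10.44, 12.99 and 11.85 FPKM in shCON and 11.8, 6.20 and 8.35 FPKM in shPAX6 libraries. Libraries 2 and 3 of shPAX6 lay below all shCON libraries, and library 1 lay among them. The log2 fold change was -0.46 (SE 0.24, limma adjusted p = 0.37), and without shPAX6 library 1 it was -0.70 (adjusted p = 0.053).

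Among the DR genes, HLA-DRB1 stood at 6.43, 6.69 and 7.27 FPKM in shCON and at 11.6, 4.85 and 7.01 FPKM in shPAX6 libraries. The shPAX6 libraries held both the highest and the lowest value of all 6, and the log2 fold change was 0.11 (SE 0.30, limma adjusted p = 0.89). HLA-DRB5 ranged from 1.80 to 2.18 FPKM in shCON and from 1.85 to 2.79 in shPAX6 libraries, groups that overlapped (limma adjusted p = 0.66). HLA-DRA, the partner chain, was low throughout, at 0.301, 0.286 and 0.0415 FPKM in shCON and 0.176, 0.206 and 0.336 in shPAX6 libraries, which overlapped (two-sided exact permutation p = 0.80). With 3 against 3 libraries such a permutation cannot go below 0.10.

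HLA-DQB1 stood at 2.57, 2.75 and 2.60 FPKM in shCON and at 4.42, 3.12 and 3.74 FPKM in shPAX6 libraries. It was the sole member past the filter whose groups did not overlap, beside 26.7% of all tested features. Its log2 fold change of 0.48 (SE 0.20) did not pass the adjustment (limma adjusted p = 0.26). HLA-DQA1 was at most near 0, with a mean of 0.00754 FPKM in shCON and listed at 0 in all shPAX6 libraries.

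Neither DM gene separated the groups. HLA-DMA was at 7.07, 8.64 and 7.08 FPKM in shCON and at 8.75, 4.31 and 7.47 FPKM in shPAX6 libraries, with a log2 fold change of -0.20 (SE 0.27, limma adjusted p = 0.76). HLA-DMB was at 4.52, 2.70 and 4.15 FPKM in shCON and at 6.10, 3.92 and 4.92 FPKM in shPAX6 libraries, with a log2 fold change of 0.39 (SE 0.26, limma adjusted p = 0.49). For both genes the groups overlapped, and a p that misses the threshold does not show that they were alike.

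The remaining genes were near or under the filter. HLA-DPA1 ranged from 0.336 to 0.995 FPKM in shCON and from 0.325 to 0.774 in shPAX6 libraries (limma adjusted p = 0.76). HLA-DPB1 was at 0.206, 0.324 and 0.312 FPKM in shCON and at 0.605, 0.275 and 0.479 in shPAX6 libraries (two-sided exact permutation p = 0.30). CIITA was at 0.274, 0.188 and 0.136 FPKM in shCON and at 0.0597, 0.117 and 0.158 in shPAX6 libraries (two-sided exact permutation p = 0.20). Neither of the last pair separated the groups.

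**Figure D4:**
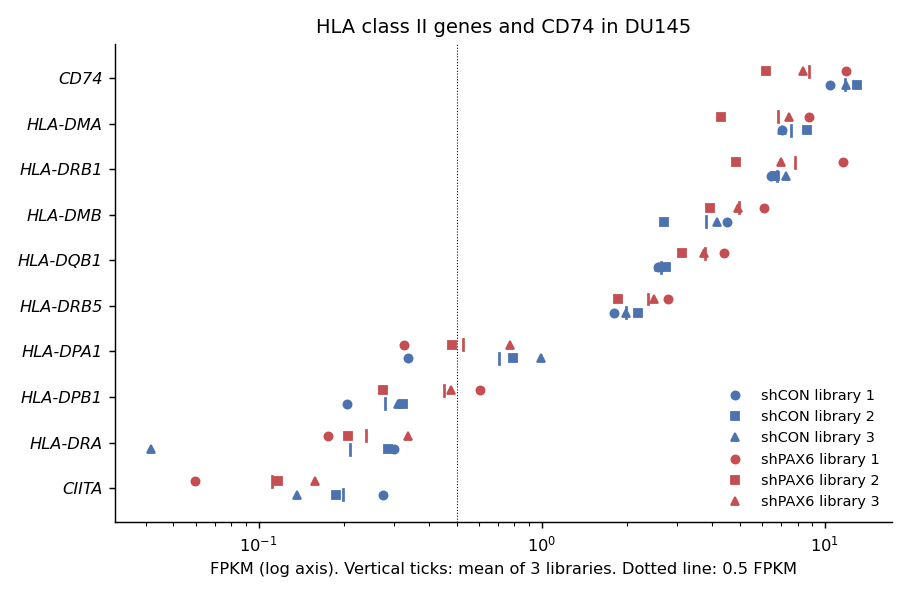
FPKM on a log axis for each of the 10 genes in the 3 shCON (blue) and 3 shPAX6 (red) libraries of DU145, with 1 symbol per library number, vertical ticks at group means and a dotted line at the filter of 0.5 FPKM. HLA-DQB1 is the sole gene past the filter without overlap, and shPAX6 library 1 (red circles) lies highest of its group in 7 of the 10 genes.

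In 7 of the 10 genes shPAX6 library 1 was the highest of its group, and in 7 of the 10 library 2 was the lowest. Over all tested features library 1 was the highest in 30.2% and library 2 the lowest in 34.0%. The reverse was more common, with library 1 the lowest in 57.9% and library 2 the highest in 50.5%. These shares cover tested features only, whereas 3 of the 10 genes were below the filter. Library 1 also had the largest FPKM sum of all libraries (570790) and library 2 the smallest (448901), and the part of these sums in the result was not tested. For HLA-DRB1 the first was 2.40 times the second, and for HLA-DMA 2.03 times. RFX5 stood at 11.2 FPKM in shPAX6 library 1, against 53.8 and 39.9 FPKM in the other shPAX6 libraries and 51.3 to 59.7 FPKM in shCON, and its part in these values was not tested.

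In shCON cells the order of the group means was CD74 (11.8 FPKM), HLA-DMA (7.60), HLA-DRB1 (6.80), HLA-DMB (3.79), HLA-DQB1 (2.64), HLA-DRB5 (1.99), HLA-DPA1 (0.707), HLA-DPB1 (0.280), HLA-DRA (0.210) and CIITA (0.199). The ranges of neighbouring genes overlapped between HLA-DMA and HLA-DRB1, between HLA-DMB and HLA-DQB1, and among HLA-DPB1, HLA-DRA and CIITA. The remaining neighbours did not overlap.

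None of the other gene lists held a gene past limma's adjustment in the main DU145 fit, with all 6 libraries and a pseudocount of 0.1 FPKM. Other fits with all 6 libraries called 1 gene of these lists each in 2 settings. These were CD274, higher in shPAX6 cells, with quantile normalization, and EPCAM, lower, with a pseudocount of 1 FPKM. EPCAM was also the 1 list gene called without shPAX6 library 2. Without shPAX6 library 1, 7 genes of these lists passed, namely RFXANK, CTSF, CTSH, CD40, CD274, CD79A and EPCAM, with limma adjusted p from 0.0085 to 0.047, and all but CD274 were lower in shPAX6 cells. That fit called 920 of all 13574 tested features, 720 of them lower, so nothing particular to these lists is read from the calls. The values that follow are from the main fit. Counts at an unadjusted p under 0.05 are given in parentheses and stand beside the 18.3% of all tested features. Of 10 promoter factors 0 passed (1 at an unadjusted p under 0.05), with a median log2 fold change of -0.32. RFX5 (-0.95) and the coactivator EP300 (-0.84) were the lowest of that list, and NFYC (0.17) and the acetyltransferase KAT2B (0.14) the highest. On the route from interferon-gamma to CIITA 8 of 11 genes were tested and 0 passed (1 at an unadjusted p under 0.05), from -0.49 for IRF1 to -0.03 for USF1 and 0.06 for JAK2. IRF1 was the gene under 0.05 (SE 0.18, limma adjusted p = 0.21), and IFNG was listed at 0 in all libraries. Of 11 tested lysosomal genes 0 passed (4 at an unadjusted p under 0.05), with CTSF (-0.81) and MARCH8 (-0.79) lowest and IFI30 (1.35) and SPPL2A (0.42) highest. Of 5 costimulatory genes 0 passed (4 at an unadjusted p under 0.05), with ICOSLG (-1.40) and ICAM1 (-0.50) lowest and CD274 (0.73) and CD58 (0.28) highest. Of 10 class I genes and of 3 partners of CD74, 0 passed and 0 had an unadjusted p under 0.05, and the class I genes ran from -0.26 (NLRC5) to 0.27 (PSMB9). Leukocyte markers summed to between 0.905 and 2.89 FPKM per library, and 10 of the 18, PTPRC among them, were listed at 0 in all 6 libraries.

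**Figure D5:**
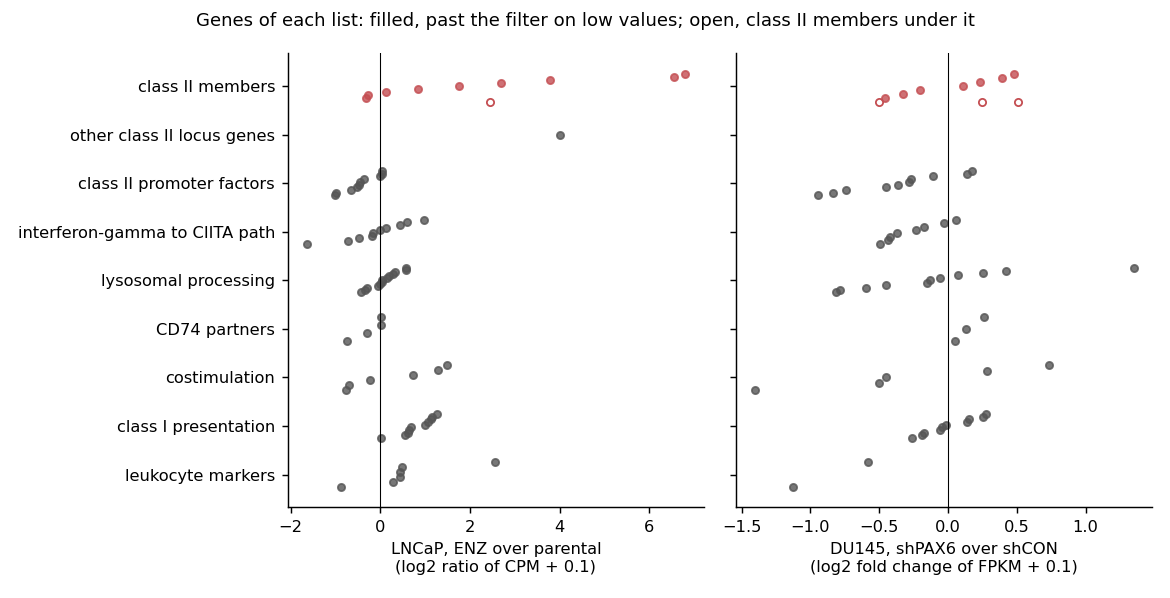
Log2 ratios in LNCaP (left, CPM + 0.1) and log2 fold changes in DU145 (right, FPKM + 0.1) for the genes of each list, with filled points for genes past the filter on low values and open red points for class II genes under it. In LNCaP the class II genes spread from -0.31 to 6.80 while the promoter factors stay between -1.02 and 0.05, and in DU145 the class II genes past the filter lie between -0.46 and 0.48.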

How the data were processed

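RNA-seq values of 2 LNCaP and 6 DU145 libraries were used. According to the study's methods, reads were aligned to GRCh37 with HISAT2 and quantified with StringTie. For LNCaP the authors deposited raw counts and TPM. The DU145 table names no unit, and its deposited values were treated as FPKM computed by the authors. Samples were grouped by their labels, and members and gene lists were chosen with earlier results of these data known.

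LNCaP counts were scaled by library totals, and genes with at least 10 counts over both libraries were described with a pseudocount of 0.1 CPM, at a confidence level of 95%. DU145 was fitted with limma 3.58.1 (eBayes with trend, two-sided) on log2(FPKM + 0.1), keeping the 13574 features whose mean reached 0.5 FPKM. Benjamini-Hochberg adjustment ran over all of these at a threshold of 0.05. Alternatives used edgeR 4.0.16 and DESeq2 1.42.0 factors for LNCaP.

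Named genes are the 10 members, list members past the call rule (or the 2 largest changes in each direction where none or over 4 passed), PAX6, leukocyte markers and the 5 genes nearest to CD74. The genes named in the closing section and single list members without a call (RFX5, IFNG, HOXB13) were named after their values were seen. Some genes that this rule covers are not reported here.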

Additional observations from a re-analysis of the deposited data

How the results depend on the processing

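In LNCaP, the same 5 genes were at least 2-fold higher under every alternative tried, by the log2 ratio with that alternative's own unit and pseudocount. HLA-DRB5 was a further gene without the filter. The median of the 10 log2 ratios lay between 0.94 (pseudocount of 1 CPM) and 2.42 (pseudocount of 0.01), and CD74 between 5.12 and 7.18. Of all genes, 157 were at least 2-fold higher with a pseudocount of 1 CPM, 2090 without a filter and 271 at a mean of at least 1 CPM. CIITA had a log2 ratio of CPM + 0.1 of up to 0.999 (DESeq2 size factors), and without the pseudocount its ratio was 2.14 with those factors and 2.10 with edgeR's TMM factors, against 1.90 with library totals. In DU145, 0 of the class II genes tested passed limma's threshold under any of the 15 alternatives, which tested 7 of them, or 6 at a mean of at least 1 FPKM and 10 at 0.1 FPKM or with no filter. Over all features the calls went from 163 to 108 without a filter and 100 with median centring, and leaving out 1 library gave between 0 (without shCON replicate 1 or 3) and 920 (without shPAX6 replicate 1). Without shPAX6 replicate 2 there were 903 calls, without shCON replicate 2 there were 5 and without shPAX6 replicate 3 there were 10. With the replicate block 0 features passed (1568 at an unadjusted p under 0.05, against 2480 without it). Libraries of the same number did not deviate together (correlations -0.17, -0.37 and 0.052). With 3 libraries per group these correlations cannot exclude a pairing, and the labels do not state one. Reversed signs, in members that passed in no fit, were HLA-DPA1 at 0.10 with quantile normalization, HLA-DRA at -0.24 without shCON replicate 3 (up to 0.51 over the left-out libraries), HLA-DRB1 at -0.21 without shPAX6 replicate 1 (up to 0.41) and HLA-DMA at 0.095 without shPAX6 replicate 2 (down to -0.41). The causes were not tested. In LNCaP, parental counts of 0 to 15 limit the folds of CD74, the DR genes, HLA-DPA1 and CIITA.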

Other observations

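Alpha and beta chains of a class II molecule pair 1 to 1. The level of 1 chain gene over its partner within a library was computed after the values had been seen. HLA-DRA over HLA-DRB1 was 0.204 in parental LNCaP and 2.05 in LNCaP-ENZ cells by TPM. In DU145 the same ratio by FPKM lay between 0.00571 and 0.0468 in shCON and between 0.0151 and 0.0479 in shPAX6 libraries, so HLA-DRB1 exceeded HLA-DRA in all 6. HLA-DQA1 over HLA-DQB1 was 0.0180 and 0.763 in the LNCaP libraries. HLA-DMA over HLA-DMB stood at 2.49 and 2.55 there, between 1.56 and 3.20 in shCON and between 1.10 and 1.52 in shPAX6 libraries. CD74 over HLA-DRA was 1.52 and 1.45 in the LNCaP libraries, with both genes higher in LNCaP-ENZ cells, and lay between 34.7 and 285 in shCON and between 24.9 and 67.2 in shPAX6 libraries. HLA-DPA1 over HLA-DPB1 was 0.427 and 1.01 in the LNCaP libraries, between 1.64 and 3.20 in shCON and between 0.538 and 1.75 in shPAX6 libraries. The parental ratios rest on 1 count of HLA-DQA1, 3 of HLA-DRA and 6 each of CD74 and HLA-DPA1, and the tables were normalized separately.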
